A study of Mus musculus with 16 samples.

Results

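Glypicans (Gpc1 to Gpc6) and syndecans (Sdc1 to Sdc4) are the main families of cell-surface heparan sulfate proteoglycans, and all 10 genes of the mouse were followed here across 3 kinds of induced brain tumour and normal brain. The members were the probe sets whose array annotation gives 1 symbol equal to a member. Each of the 10 genes had 1 such probe set, so 10 of 19938 measured genes are described, 6 glypicans and 4 syndecans. In brief, Gpc2 and Sdc3 were higher and Gpc4 and Sdc4 lower in all 3 tumour types than in normal brain. Some of the Gpc2 and Sdc4 calls were lost when single arrays were left out. Gpc5 was lower in the tumours made without PDGF-B than in both types made with it, which also differ in virus, Cre driver and sex pattern. Against the PDGF-B type that lacks RBPjk too, the Gpc5 call was lost with a sex term or without some single arrays.

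Glypicans are held on the outer membrane by a lipid anchor, while syndecans cross the membrane and have a short tail inside the cell. Both carry heparan sulfate, long sulfated sugar chains that bind growth factors such as FGFs, PDGFs, Wnts and hedgehog proteins and hold or present them at the cell surface. In brain, glypicans released by astrocytes take part in synapse formation, and syndecans are found on neurons, glia and precursor cells.

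Total RNA was measured on 16 expression arrays, with 4 in every group. A PDGF-IRES-Cre retrovirus, which overexpresses PDGF-B together with Cre recombinase, gave PDGF+p53-/- tumours in p53 floxed mice. PDGF+p53-/-RBPjk-/- tumours arose from the same virus in mice with both p53 and RBPjk floxed, so that the DNA-binding factor of Notch signalling was lost as well. p53-/-RBPjk-/- tumours, labelled wild type for Pdgfb, arose through the Hes5::CreERT2 transgene, which deletes both floxed genes in Hes5+ cells, a population that includes neural stem and progenitor cells. Control brain tissue was wild type for Pdgfb, Trp53 and Rbpj. All 3 tumour types lack p53 and were dissected by a Cre-dependent GFP reporter when mice were symptomatic, so host cells that keep the floxed genes can be in a sample. The labels give neither ages nor whether each array is a separate animal, so part of the spread behind every p-value may be technical. Normal brain and both PDGF types hold arrays of both sex patterns, given below, and so come from more than 1 animal each. The p53-/-RBPjk-/- arrays show the female pattern only.

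Values are log2 expression after RMA, a scale on which 1 unit is a 2-fold change, and levels of different genes cannot be set against each other. A gene is called changed where limma's Benjamini-Hochberg adjusted p over all 19938 genes is under 0.05. Arrays of 1 group correlated at 0.967 to 0.984. The probe set of Rbpj ran from 7.55 to 7.88 in PDGF+p53-/-RBPjk-/- tumours and from 7.64 to 7.93 in p53-/-RBPjk-/- tumours, below PDGF+p53-/- tumours at 8.17 to 8.50, while normal brain lay between 7.76 and 8.21. In this order, both types differed from PDGF+p53-/- tumours by -0.59 and -0.53 (limma adjusted p = 0.269 and 0.0191). From normal brain they differed by -0.28 and -0.23 (limma adjusted p = 0.101 and 0.183). The probe set of Pdgfb averaged 6.03 and 6.02 in PDGF+p53-/- and PDGF+p53-/-RBPjk-/- tumours, against 5.89 in normal brain (differences of 0.14 and 0.13, limma adjusted p = 0.565 and 0.58). Against normal brain it thus did not show the overexpression that the labels state, and whether it reads the viral transcript is not given. In p53-/-RBPjk-/- tumours it averaged 5.53, without overlap with either PDGF type but not called (-0.50 and -0.49, limma adjusted p = 0.0693 and 0.0962). Cell type markers were summed up by list, and the mean of 11 neuron markers was 7.46 to 8.81 in PDGF+p53-/-, 7.26 to 8.59 in PDGF+p53-/-RBPjk-/- and 6.69 to 7.93 in p53-/-RBPjk-/- tumours, against 10.58 to 10.70 in normal brain. The mean of 9 oligodendrocyte precursor markers was 8.76 to 9.55 over the tumour arrays and 7.15 to 7.28 in normal brain. PDGF+p53-/- replicate 3 had the highest neuron mean (8.81) and astrocyte mean (8.93) of the tumour arrays and was the nearest of them to normal brain on the first principal component, at -8.8 against 13.2 to 40.3 for the other tumour arrays and -76.6 to -73.2 for normal brain. In such bulk samples, fewer cells of a type and less RNA per cell cannot be told apart.

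The region before the start of transcription is shown for Gpc5, the member that differed most, and for Sdc3 and Sdc4, which moved in opposite directions, because RBPjk binds promoters through a core with the letters TGGGAA. The sequences are windows of 250 bases from RefSeq on build GRCm38.p6, at chr14:115091965-115092214 (plus strand) for Gpc5, chr4:130792287-130792536 (plus strand) for Sdc3 and chr2:164443189-164443438 (minus strand) for Sdc4. Those of Sdc3 and Sdc4 lie directly before the annotated gene start. The Gpc5 window runs past its gene start at 115092201, so its last bases lie within the gene. The Gpc2 window counted below overlaps its gene too. The sequences read 5′ to 3′ in the direction of the gene. Capitals mark a TATA motif, TATAA, and a GC box with the letters GGGCGG, each on either strand.
Gpc5: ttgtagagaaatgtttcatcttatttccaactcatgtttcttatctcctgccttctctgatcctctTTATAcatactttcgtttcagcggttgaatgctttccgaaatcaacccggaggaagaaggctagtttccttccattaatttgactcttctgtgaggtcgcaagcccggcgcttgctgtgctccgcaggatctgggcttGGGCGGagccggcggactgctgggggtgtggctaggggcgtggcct
Sdc3: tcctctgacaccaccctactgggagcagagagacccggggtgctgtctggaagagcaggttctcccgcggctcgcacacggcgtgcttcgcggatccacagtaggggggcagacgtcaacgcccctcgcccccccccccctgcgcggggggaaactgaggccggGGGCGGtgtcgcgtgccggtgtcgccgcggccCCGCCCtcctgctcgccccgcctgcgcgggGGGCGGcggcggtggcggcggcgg
Sdc4: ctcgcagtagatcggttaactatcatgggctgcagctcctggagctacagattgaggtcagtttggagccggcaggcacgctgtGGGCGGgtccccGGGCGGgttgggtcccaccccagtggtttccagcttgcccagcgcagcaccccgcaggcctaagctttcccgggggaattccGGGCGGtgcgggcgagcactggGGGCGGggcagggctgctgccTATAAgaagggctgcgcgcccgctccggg
The core TGGGAA, on either strand, was in 0 of the 7 member promoters that the table holds (Gpc2, Gpc3, Gpc4, Gpc5, Sdc1, Sdc3 and Sdc4), against 21.6% of all 32851 promoter windows of the same length. A GC box was in 7 of 7, against 32.7% of all windows. TATAA on either strand was in 3 of 7 (Gpc5, Sdc1 and Sdc4), against 22.8%, and in Sdc1 the forward and reverse matches overlap. The Gpc5 window was the least rich in G and C of the 7, at 51.2% with 12 CpG pairs, and Sdc3 the richest, at 76.4% with 32. The median of all windows was 52.4% with 6 CpG pairs.

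Against normal brain, 6 of 10 members were called in PDGF+p53-/- tumours (3 higher and 3 lower, where 13.6% and 17.6% of all genes were), 5 of 10 in PDGF+p53-/-RBPjk-/- tumours (2 higher and 3 lower, against 15.7% and 17.9%) and 5 of 10 in p53-/-RBPjk-/- tumours (2 higher and 3 lower, against 16.4% and 20.4%). Over all genes 31.1%, 33.6% and 36.8% were called in these comparisons. Arrays of tumour and normal brain did not overlap for 4, 6 and 5 members, and for 30.0%, 34.5% and 34.4% of all genes. Higher in all 3 types were 2 members and lower in all 3 were 2, as were 10.2% and 14.1% of all genes. With 10 genes such shares are rough, and the counts are given as a description. The median size of the difference, whatever its sign, was 0.58, 0.59 and 0.59 for the members and 0.24, 0.25 and 0.28 for all genes. The 3 comparisons share the same 4 control arrays.

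**Figure D1:**
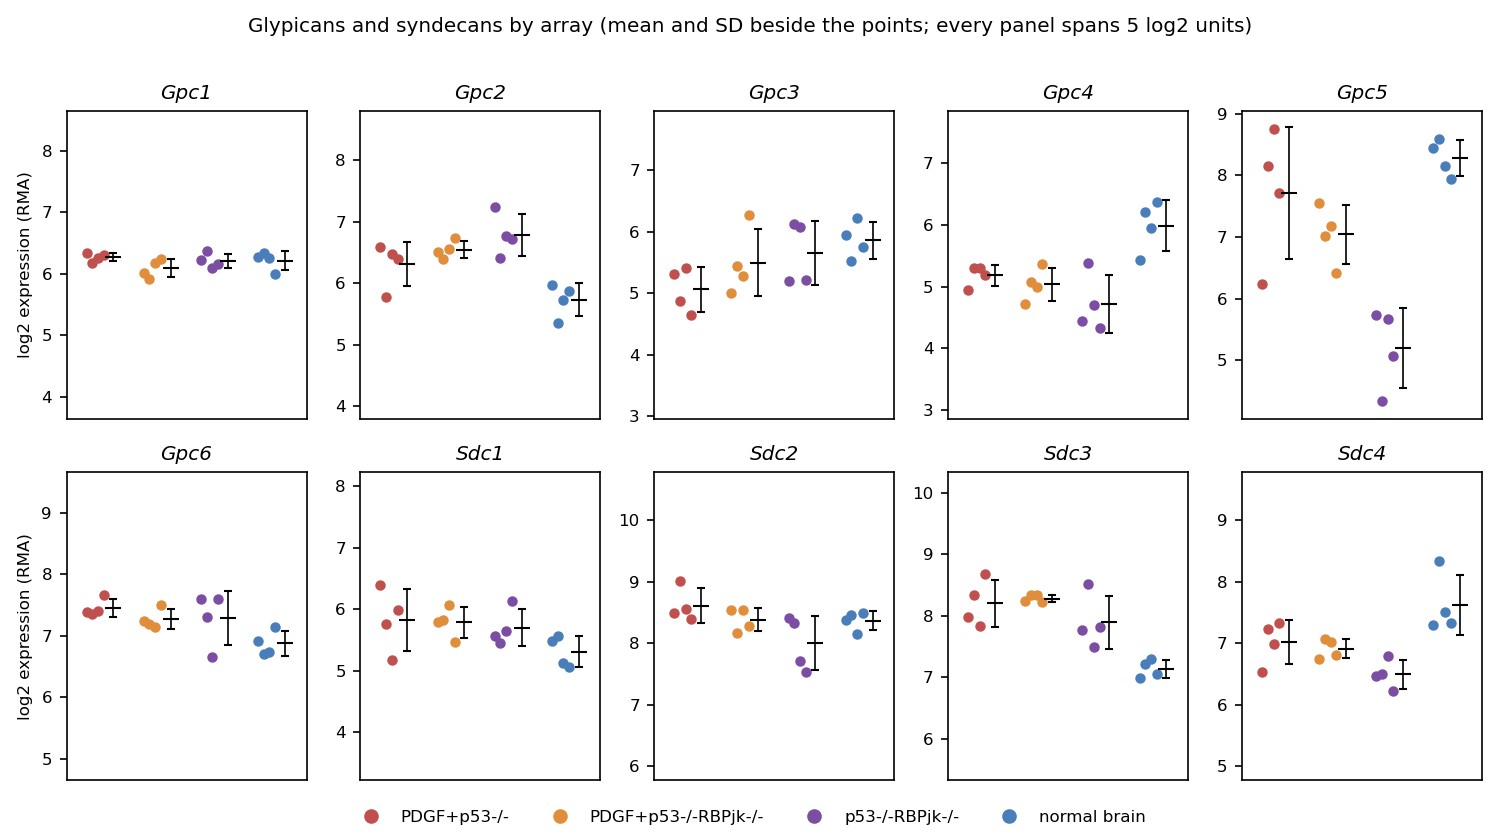
Log2 expression of the 10 genes in each of the 16 arrays, with the tumour groups left of normal brain, 1 point an array, and mean and SD (n = 4) beside the points. The Gpc5 points of p53-/-RBPjk-/- tumours (4.34 to 5.73) lie below all other arrays, and the Sdc3 points of the 3 tumour types (7.50 to 8.68) lie above normal brain (6.98 to 7.29).

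Gpc5 was the member with the widest range. Its protein is a glypican that human and mouse work links to astrocytes and to hedgehog binding. Gpc5 read 6.24, 8.16, 8.75 and 7.71 in PDGF+p53-/- tumours, 7.56, 7.01, 7.18 and 6.42 in PDGF+p53-/-RBPjk-/- tumours and 5.73, 4.34, 5.67 and 5.06 in p53-/-RBPjk-/- tumours, against 8.45, 8.59, 8.15 and 7.94 in normal brain. From lowest to highest mean, the order was p53-/-RBPjk-/-, PDGF+p53-/-RBPjk-/- and PDGF+p53-/- tumours and then normal brain, and the steps on either side of PDGF+p53-/- tumours did not pass the test. PDGF+p53-/- tumours overlapped with normal brain and with PDGF+p53-/-RBPjk-/- tumours, whereas p53-/-RBPjk-/- tumours overlapped with no other group.

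Gpc5 fell by 3.09 ± 0.41 (log2 difference ± SE) in p53-/-RBPjk-/- tumours against normal brain, a level 8.49-fold lower (limma adjusted p = 9.98e-06, 4 arrays against 4). In PDGF+p53-/-RBPjk-/- tumours it fell by 1.24 ± 0.41 (adjusted p = 0.0265), and in PDGF+p53-/- tumours its value was -0.57 ± 0.41 (adjusted p = 0.34, 95% interval -1.44 to 0.30). Between tumour types, Gpc5 was the only member called. It fell by 2.52 ± 0.41 in p53-/-RBPjk-/- against PDGF+p53-/- tumours (5.72-fold lower, adjusted p = 0.00232), which ranked 15 of 19938 genes by size, and by 1.84 ± 0.41 against PDGF+p53-/-RBPjk-/- tumours (3.59-fold lower, adjusted p = 0.0222), which ranked 38. Both comparisons share the p53-/-RBPjk-/- arrays. The exact two-sided permutation p of each was 0.0286, the smallest that 4 against 4 arrays allow.

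Not all Gpc5 calls were firm. The difference from PDGF+p53-/-RBPjk-/- tumours lost its call without PDGF+p53-/-RBPjk-/- replicate 1 (-1.67, adjusted p = 0.0761), 2 (-1.86, 0.0574) or 3 (-1.80, 0.0741) and without p53-/-RBPjk-/- replicate 2 (-1.56, 0.0573) or 4 (-1.80, 0.0549). The difference of PDGF+p53-/-RBPjk-/- tumours from normal brain lost it without PDGF+p53-/-RBPjk-/- replicate 2 (-1.23, adjusted p = 0.0544) or 4 (-1.03, 0.0881) and without control replicate 1 (-1.19, 0.0623) or 2 (-1.14, 0.0706). The uncalled value of PDGF+p53-/- tumours turned on single arrays, at -0.08 without PDGF+p53-/- replicate 1 and -0.92 without replicate 3.

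Sex pattern and cell type markers also differed between the groups. By Xist and Y-linked genes, all 4 p53-/-RBPjk-/- arrays showed the female pattern, against 1 of 4 PDGF+p53-/-, 1 of 4 PDGF+p53-/-RBPjk-/- and 2 of 4 normal brain arrays. With a sex term in the fit the difference from PDGF+p53-/-RBPjk-/- tumours was -1.39 and not called (adjusted p = 0.25), while that from PDGF+p53-/- tumours was -2.06 and called (adjusted p = 0.0489). Among arrays of the female pattern, Gpc5 ran from 4.34 to 5.73 in p53-/-RBPjk-/- tumours, against 6.24 in the PDGF+p53-/- array, 7.18 in the PDGF+p53-/-RBPjk-/- array and 7.94 and 8.45 in normal brain. Of 10 astrocyte markers 9 were lower in each tumour type than in normal brain, and their mean ran from 7.14 to 7.63 in p53-/-RBPjk-/-, from 7.61 to 8.05 in PDGF+p53-/-RBPjk-/- and from 7.46 to 8.93 in PDGF+p53-/- tumours, against 9.40 to 9.60 in normal brain. The part of these and of the neuron markers in the Gpc5 result was not tested. Deviations of Gpc5 from its group means correlated at 0.43 with those of the astrocyte mean and at 0.58 with those of the neuron mean over the 16 arrays, given as a description. Among the marker lists the value largest in size was -0.61, with the plasma cell and lymphocyte mean, and the fibroblast and meninges mean was at -0.43.

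**Figure D2:**
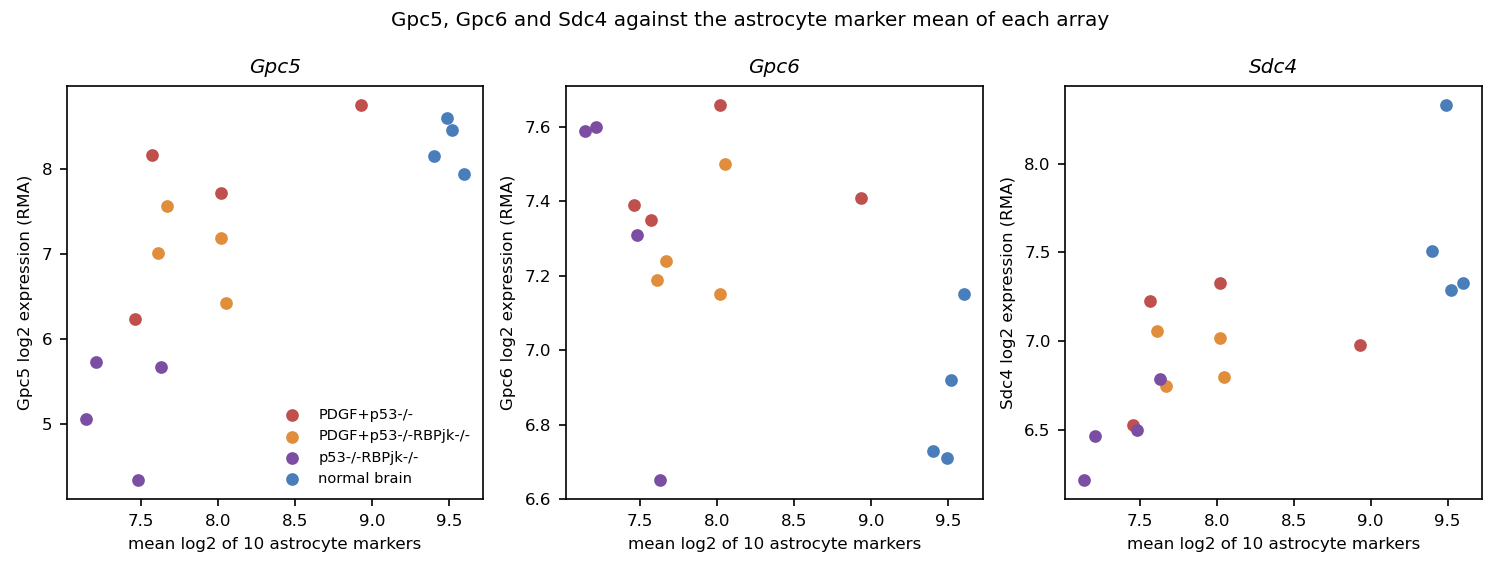
Log2 expression of Gpc5, Gpc6 and Sdc4 (vertical axes) against the mean log2 value of 10 astrocyte markers (horizontal axis), 1 point an array. Normal brain arrays lie at 9.40 to 9.60 on the horizontal axis, and the p53-/-RBPjk-/- arrays, at 7.14 to 7.63, hold the 4 lowest Gpc5 values of the 16 arrays.

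Gpc6 is the neighbour of Gpc5 on chromosome 14 in assembly GRCm38.p6, with 0 protein-coding genes between them, and encodes a glypican that mouse astrocytes release and that promotes young excitatory synapses. Gpc6 read 7.39, 7.35, 7.41 and 7.66 in PDGF+p53-/- tumours, 7.24, 7.19, 7.15 and 7.50 in PDGF+p53-/-RBPjk-/- tumours and 7.60, 7.31, 6.65 and 7.59 in p53-/-RBPjk-/- tumours, against 6.92, 6.71, 6.73 and 7.15 in normal brain. The arrays of both PDGF types lay above normal brain, and 1 p53-/-RBPjk-/- array, replicate 3, lay below it. That array also had the lowest mean of the oligodendrocyte precursor markers among tumour arrays, at 8.76 against 9.26 to 9.55 in the other 11. Deviations of Gpc6 and of that mean from their group means correlated at 0.86 over the 16 arrays, given as a description. This value leans on p53-/-RBPjk-/- replicate 3, the array furthest from its group mean in both. The part of the oligodendrocyte precursor markers in the Gpc6 result was not tested. Gpc6 rose by 0.57 ± 0.18 in PDGF+p53-/- tumours (1.49-fold, adjusted p = 0.02), and the values in the other types were 0.39 (adjusted p = 0.107) and 0.41 (adjusted p = 0.0833). The Gpc6 call was lost without PDGF+p53-/- replicate 4 (0.50, adjusted p = 0.0631), control replicate 2 (0.51, 0.06) or control replicate 3 (0.52, 0.0588). Without p53-/-RBPjk-/- replicate 3 all 3 were called, PDGF+p53-/- tumours as before, at 0.39 (0.0285) for PDGF+p53-/-RBPjk-/- and 0.62 (0.00215) for p53-/-RBPjk-/- tumours. In p53-/-RBPjk-/- tumours the values of these neighbours were thus -3.09 for Gpc5 and 0.41 for Gpc6.

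Gpc4 and Gpc3 are neighbours on the X chromosome, also with 0 protein-coding genes between them. Gpc4 encodes a second astrocyte-released glypican of mouse synapse formation, and it read 4.94, 5.30, 5.30 and 5.18 in PDGF+p53-/-, 4.71, 5.07, 4.99 and 5.37 in PDGF+p53-/-RBPjk-/- and 4.44, 5.39, 4.70 and 4.33 in p53-/-RBPjk-/- tumours, against 5.43, 6.21, 5.95 and 6.37 in normal brain. Every tumour array lay below every normal array. Gpc4 fell in the 3 types, with differences of -0.81, -0.95 and -1.27 (SE 0.22 each, adjusted p = 0.00996, 0.00281 and 0.000183), and no call changed under the 25 alternatives that hold the gene (it is among those dropped without dim genes). Between tumour types its values were -0.14 (adjusted p = 0.985) for RBPjk loss in PDGF tumours, -0.32 (0.53) for p53-/-RBPjk-/- against PDGF+p53-/-RBPjk-/- and -0.47 (0.271) against PDGF+p53-/- tumours.

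Gpc3, a glypican of embryonic growth control whose loss causes an overgrowth syndrome in humans, was scattered in 2 of the tumour types. It read 5.32, 4.88, 5.41 and 4.64 in PDGF+p53-/-, 5.0, 5.44, 5.28 and 6.28 in PDGF+p53-/-RBPjk-/- and 5.20, 6.13, 6.07 and 5.21 in p53-/-RBPjk-/- tumours, against 5.94, 5.52, 6.23 and 5.76 in normal brain. Only the PDGF+p53-/- arrays lay wholly below normal brain. There Gpc3 fell by 0.80 ± 0.28 (adjusted p = 0.0346), and the other types were at -0.36 (0.362) and -0.21 (0.613). The Gpc3 call did not hold without PDGF+p53-/- replicate 2 (-0.74, adjusted p = 0.0843) or 4 (-0.66, 0.111), without control replicate 1 (-0.77, 0.0726), 3 (-0.67, 0.108) or 4 (-0.83, 0.0528), and with each array centred on 9 housekeeping genes (-0.78, 0.0515). Gpc3 and Gpc4 were, with Sdc1, the 3 members whose group means all lay below 6.26, the median over genes and arrays, where array values are compressed, and the other 7 passed that filter. Gpc5 and Gpc2 passed it through their higher groups, since the mean of Gpc5 in p53-/-RBPjk-/- tumours (5.20) and that of Gpc2 in normal brain (5.73) lay below 6.26 too. Likewise Gpc1 passed it only through PDGF+p53-/- tumours (6.27), with means of 6.09 to 6.21 in the other groups.

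Gpc2, known as cerebroglycan and found on developing neurons and in neuroblastoma, was higher in every tumour type. It read 6.59, 5.78, 6.48 and 6.39 in PDGF+p53-/-, 6.50, 6.39, 6.55 and 6.73 in PDGF+p53-/-RBPjk-/- and 7.23, 6.41, 6.76 and 6.71 in p53-/-RBPjk-/- tumours, against 5.97, 5.36, 5.72 and 5.87 in normal brain. PDGF+p53-/- replicate 2 lay within the normal range, and the other 11 tumour arrays lay above it. Gpc2 rose by 0.58 ± 0.19, 0.81 ± 0.19 and 1.04 ± 0.19 (1.5-, 1.76- and 2.06-fold, adjusted p = 0.0263, 0.00271 and 0.000255). Its difference between p53-/-RBPjk-/- and PDGF+p53-/- tumours was 0.46 and did not pass (adjusted p = 0.179). The PDGF+p53-/- call was lost without PDGF+p53-/- replicate 1 (0.49, adjusted p = 0.0916), 3 (0.52, 0.0662) or 4 (0.55, 0.0607) and without control replicate 2 (0.46, 0.097) or 3 (0.58, 0.0532). The mean of 9 proliferation markers was 8.73 to 9.63 over tumour arrays and 5.88 to 6.28 in normal brain, and its part in the Gpc2 result was not tested.

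Gpc1, a glypican of neurons and of many carcinomas, did not pass in any comparison. It read from 6.18 to 6.34 in PDGF+p53-/-, from 5.92 to 6.24 in PDGF+p53-/-RBPjk-/- and from 6.09 to 6.36 in p53-/-RBPjk-/- tumours, against 5.99 to 6.34 in normal brain, so all groups overlapped. Its difference from normal brain was 0.06 (95% interval -0.18 to 0.30), -0.12 (-0.36 to 0.11) and 0.00 (-0.24 to 0.23) in the 3 types. These intervals reach -0.36 and 0.30 at their widest, at levels near the median of 6.26 given above, below which array values are compressed.

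Among syndecans, Sdc3, the neuronal syndecan that binds the growth factor pleiotrophin, was the one raised in all tumour types. Sdc3 read 7.98, 8.33, 7.83 and 8.68 in PDGF+p53-/-, 8.24, 8.33, 8.33 and 8.22 in PDGF+p53-/-RBPjk-/- and 7.77, 8.51, 7.50 and 7.81 in p53-/-RBPjk-/- tumours, against 6.98, 7.21, 7.29 and 7.06 in normal brain. No tumour array overlapped with normal brain. Sdc3 rose by 1.07 ± 0.19, 1.14 ± 0.19 and 0.76 ± 0.19 (2.10-, 2.21- and 1.70-fold, adjusted p = 0.000334, 0.000153 and 0.00428), calls that none of 26 alternatives changed. Oligodendrocyte precursor markers moved the same way, with 8 of 9 higher in each tumour type than in normal brain, and neuron markers the other way, with 11 of 11 lower. Their part in the Sdc3 result was not tested. Between tumour types Sdc3 was at 0.08 (adjusted p = 0.991), -0.38 (0.344) and -0.31 (0.446), and none passed.

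Sdc4, a syndecan of focal adhesions that is also an astrocyte transcript in mouse brain, was lower in all tumour types. It read 6.53, 7.23, 6.98 and 7.33 in PDGF+p53-/-, 6.75, 7.06, 7.02 and 6.80 in PDGF+p53-/-RBPjk-/- and 6.47, 6.50, 6.79 and 6.22 in p53-/-RBPjk-/- tumours, against 7.29, 8.33, 7.51 and 7.33 in normal brain. Control replicate 2 stood above the other normal arrays, and PDGF+p53-/- replicate 4 lay within the normal range. Sdc4 fell in the 3 types, with differences of -0.60, -0.71 and -1.12 (SE 0.21 each, adjusted p = 0.041, 0.0152 and 4e-04). Without control replicate 2 the first 2 values were -0.36 (adjusted p = 0.159) and -0.47 (0.0575), and the first call was also lost without PDGF+p53-/- replicate 1 (-0.43, 0.155), PDGF+p53-/- replicate 3 (-0.58, 0.0717) or control replicate 3 (-0.63, 0.0575) and with only both groups in the fit (-0.60, 0.0897). The p53-/-RBPjk-/- call held under all 26 alternatives. The astrocyte markers given above were lower in the same arrays, and their part in the Sdc4 result was not tested. Deviations of Sdc4 and of the astrocyte mean from their group means correlated at 0.16 over the 16 arrays, given as a description.

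Sdc1, the syndecan of epithelia and plasma cells, and Sdc2, a syndecan of fibroblasts and of dendritic spines, did not pass in any comparison. Housekeeping centring raised all genes of p53-/-RBPjk-/- tumours against normal brain by 0.20, and Gpc6 (0.61, adjusted p = 0.0129) and Sdc1 (0.59, 0.0342) were then called there. The centring genes were not constant, since 2 of the 9 were themselves called higher and 4 lower in that comparison. In each PDGF type against normal brain 2 were called higher and 3 lower. Sdc1 read from 5.17 to 6.39 in PDGF+p53-/-, from 5.47 to 6.07 in PDGF+p53-/-RBPjk-/- and from 5.45 to 6.13 in p53-/-RBPjk-/- tumours, against 5.06 to 5.57 in normal brain, with differences of 0.51, 0.47 and 0.38 (adjusted p = 0.088, 0.114 and 0.196). Without PDGF+p53-/- replicate 3 the first of these was 0.73 and called (adjusted p = 0.00839). Of 7 plasma cell and lymphocyte markers 0 were called in any comparison. PDGF+p53-/- replicate 1, with the highest Sdc1 (6.39), had the highest mean of these markers among the 16 arrays (5.78). It also had the highest fibroblast and meninges mean (7.51). As a description, Sdc1 deviations from group means correlated at 0.52 with those of the plasma cell and lymphocyte mean. The values were -0.66 for astrocyte, 0.54 for endothelium, -0.53 for mature oligodendrocyte and 0.48 for fibroblast and meninges means. The part of these lists in the Sdc1 values was not tested. Sdc2 read from 8.39 to 9.02 in PDGF+p53-/-, from 8.17 to 8.55 in PDGF+p53-/-RBPjk-/- and from 7.54 to 8.42 in p53-/-RBPjk-/- tumours, against 8.15 to 8.50 in normal brain. The largest Sdc2 value was between p53-/-RBPjk-/- and PDGF+p53-/- tumours, at -0.61 ± 0.19 (adjusted p = 0.0706), which was called without p53-/-RBPjk-/- replicate 1 (-0.74, 0.0295) or 2 (-0.72, 0.0473). Without p53-/-RBPjk-/- replicate 1 the difference from normal brain was -0.50 and called as well (adjusted p = 0.0488), against -0.36 with it (0.151).

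**Figure D3:**
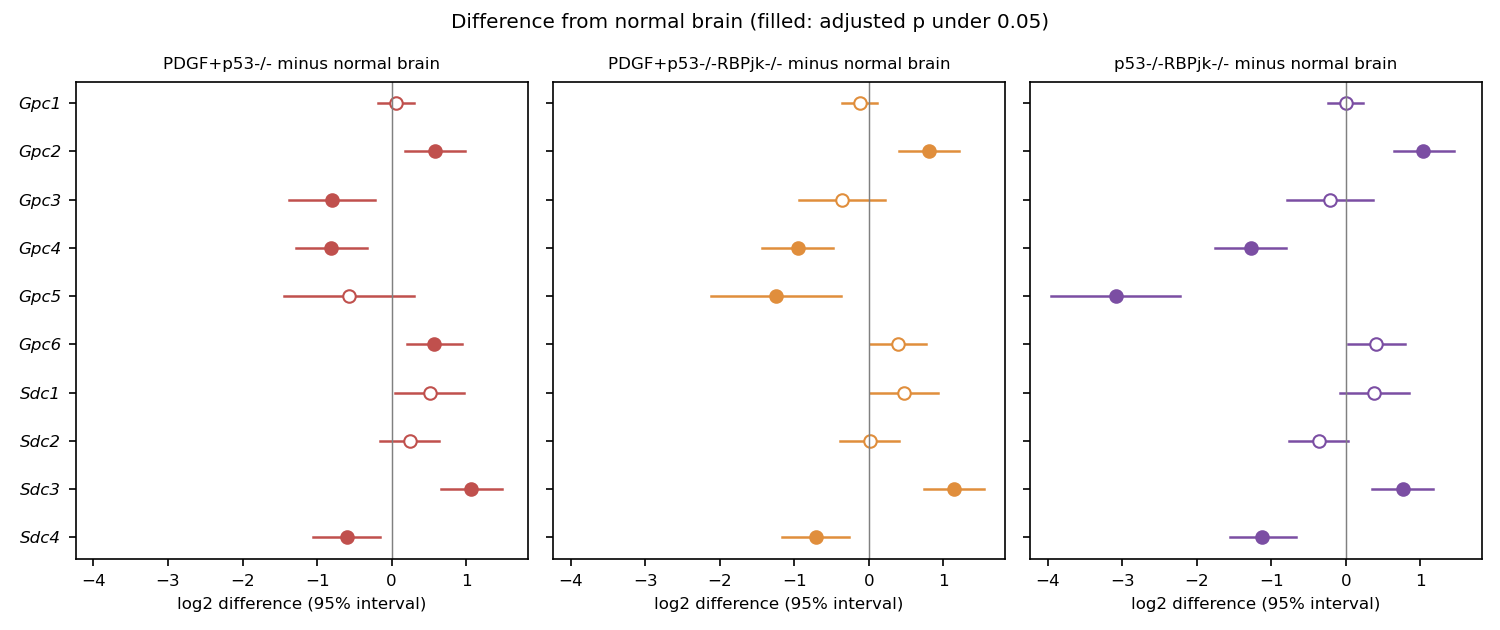
Log2 difference of each gene from normal brain (horizontal axes) in the 3 tumour types, with 95% intervals from the fit and filled points for an adjusted p under 0.05. Gpc2 and Sdc3 lie right of 0 and Gpc4 and Sdc4 left of 0 in all 3 panels, and Gpc5 lies at -0.57 in PDGF+p53-/-, -1.24 in PDGF+p53-/-RBPjk-/- and -3.09 in p53-/-RBPjk-/- tumours.

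Loss of RBPjk within PDGF tumours was asked by PDGF+p53-/-RBPjk-/- against PDGF+p53-/- tumours. Of the 10 members 0 passed limma there, 0 had an unadjusted p under 0.05 and 0 had groups that did not overlap. Over all genes 0.0201% were called, 5.18% had an unadjusted p under 0.05 and 3.17% did not overlap, so a count of 0 is near the background. The largest member values were -0.67 for Gpc5 (95% interval -1.54 to 0.20) and 0.44 for Gpc3 (-0.14 to 1.02), and the intervals of the other 8 lay between -0.62 and 0.63. In p53-/-RBPjk-/- tumours 1 of 10 members, Gpc5, was called against each PDGF type, where 3.27% (against PDGF+p53-/-RBPjk-/-) and 5.54% (against PDGF+p53-/-) of all genes were (2.63% and 3.61% as lower). Gpc5 was also the 1 member without overlap in both, as were 9.69% and 9.75% of all genes. In both comparisons the groups differ in the virus, the Cre driver and PDGF-B together, and against PDGF+p53-/- tumours in RBPjk as well, which cannot be told apart. They also differ in the sex pattern given above.

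Genes with the pattern most like that of each called member over the 16 arrays were sought by Pearson correlation, as a description in which arrays of a group share their group's level. For Gpc5 they were Epas1, a hypoxia-inducible transcription factor (r = 0.950, and 0.939 over the 12 tumour arrays), and Dtna, a dystrophin-associated protein (r = 0.944 and 0.935). Epas1 read 7.63 to 8.89 in PDGF+p53-/-, 7.80 to 8.08 in PDGF+p53-/-RBPjk-/- and 6.51 to 7.33 in p53-/-RBPjk-/- tumours, against 8.60 to 8.82 in normal brain. For Sdc3 they were Nlgn3, a synaptic adhesion protein that glial precursors also express (r = 0.959 and 0.921), and Cdc42se1 (r = 0.949 and 0.846). For Gpc4 they were Mcf2 (r = 0.935 and 0.854) and Cfap161 (0.928 and 0.819), for Sdc4 Dhrs3 (0.916 and 0.798) and Myh10 (0.913 and 0.804), and for Gpc2 Nemp1 (0.923 and 0.828) and Eme1 (0.911 and 0.823). Gpc3 was closest to Sycp2 (0.886 and 0.907) and Tsga10 (0.844 and 0.834), and Gpc6 to Tedc1 (0.871 and 0.771) and Ticam1 (0.871 and 0.835).

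The genes that build, edit and read heparan sulfate were followed as a list of 68, of which 67 were measured. The missing one was Ndst1, of the sulfation list. In PDGF+p53-/- tumours 10 rose and 23 fell against normal brain (49.3% called and a median of -0.17, against 31.1% and -0.04 for all genes). In PDGF+p53-/-RBPjk-/- tumours 11 rose and 28 fell (58.2% and -0.21, against 33.6% and -0.03), and in p53-/-RBPjk-/- tumours 8 rose and 30 fell (56.7% and -0.23, against 36.8% and -0.02). Of the 67 genes, 22 were lower and 7 higher in all 3 tumour types, as were 14.1% and 10.2% of all genes.

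Of 12 chain assembly genes, 3, 5 and 6 were called in the 3 types (25%, 41.7% and 50%, against 31.1%, 33.6% and 36.8% of all genes). Xylt1, the xylosyltransferase that starts the chains on the core protein, ran from 9.34 to 10.12 in PDGF+p53-/-, from 9.64 to 9.84 in PDGF+p53-/-RBPjk-/- and from 8.09 to 9.33 in p53-/-RBPjk-/- tumours, against 7.71 to 8.0 in normal brain. It rose by 1.94 ± 0.21, 1.90 ± 0.21 and 1.01 ± 0.21 (adjusted p = 1.68e-06, 1.75e-06 and 0.000862). The largest falls of this list were B3gat3, which completes the linker, in PDGF+p53-/- (-0.71, adjusted p = 0.00285, with overlap of arrays), Extl1 in PDGF+p53-/-RBPjk-/- (-0.71, 0.00429) and Extl2 in p53-/-RBPjk-/- tumours (-0.97, 0.000218).

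Genes of sulfation and epimerisation were lower or not called in every tumour type, with 8, 9 and 10 of 15 lower, 0 higher and medians of -0.52, -0.80 and -1.08. Over all genes 17.6%, 17.9% and 20.4% were lower, with medians of -0.04, -0.03 and -0.02. Ndst1 was not measured, so these counts say nothing about it. The 5 genes called in no tumour type were Ndst2 (0.32, 0.32 and 0.20), Hs2st1 (0.24, 0.34 and -0.12), Hs3st3a1, Hs3st3b1 and Hs3st6. Ndst4, an enzyme that replaces acetyl by sulfate groups on the chain, fell in all 3 types, with differences of -2.40, -3.09 and -3.23 (SE 0.31 each, adjusted p = 1.05e-05, 6e-07 and 2.2e-07), with 3.53 to 5.52 over the tumour arrays and 6.58 to 7.37 in normal brain. Its relative Ndst3 was lowest in p53-/-RBPjk-/- tumours: it ran from 7.63 to 8.48 in PDGF+p53-/-, from 6.25 to 7.67 in PDGF+p53-/-RBPjk-/- and from 5.13 to 6.08 in p53-/-RBPjk-/- tumours, against 7.58 to 8.36 in normal brain. The neuron markers, lower in the same arrays, are given above, and their part in these results was not tested.

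Among genes of editing and release, Sulf2, which removes sulfate from finished chains outside the cell, rose by 2.06 ± 0.27 in PDGF+p53-/- and 1.78 ± 0.27 in PDGF+p53-/-RBPjk-/- tumours (adjusted p = 1.18e-05 and 4.5e-05). In p53-/-RBPjk-/- tumours the largest rise was Adam17, a protease that sheds cell-surface proteins (1.31 ± 0.17, adjusted p = 7.43e-06), and Sulf2 rose by 0.73 ± 0.27 (0.039). The Sulf2 arrays of that type (8.21 to 9.84) overlapped with normal brain (8.01 to 8.88). Ids, a lysosomal sulfatase that degrades heparan sulfate, had the largest fall in all 3 types (-1.64, -1.75 and -2.14; adjusted p = 2.96e-07, 1.2e-07 and 8.54e-09). Of 16 genes, 4, 4 and 3 rose and 4, 3 and 4 fell (50%, 43.8% and 43.8% called, against 31.1%, 33.6% and 36.8% of all genes).

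Partners and receptors fell in 5, 8 and 7 of 15 cases (33.3% called in PDGF+p53-/-, 60% in PDGF+p53-/-RBPjk-/- and 46.7% in p53-/-RBPjk-/- tumours, against 31.1%, 33.6% and 36.8% of all genes), and 1 rose, Cask, a scaffold that binds syndecan tails, in PDGF+p53-/-RBPjk-/- tumours (0.45, adjusted p = 0.0342). Gpr158, a receptor that binds Gpc4 at mouse synapses, had the largest fall in PDGF+p53-/- (-3.37 ± 0.45, adjusted p = 1.49e-05) and p53-/-RBPjk-/- tumours (-4.28 ± 0.45, 6.23e-07). Gria1, an AMPA receptor subunit brought to synapses by glypicans, had it in PDGF+p53-/-RBPjk-/- tumours (-3.30 ± 0.38, 3.11e-06). Other heparan sulfate proteoglycans were called in 9, 9 and 8 of 9 cases, in both directions. Spock3, a testican, had the largest fall in all 3 types (-2.75, -3.08 and -4.01, adjusted p = 0.000268, 7.88e-05 and 3.52e-06, with overlap of arrays in PDGF+p53-/- tumours). The 11 neuron markers were lower in the same arrays, with median differences of -2.86, -2.68 and -3.71, and their part in the falls of Gpr158, Gria1 and Spock3 was not tested. The largest rises were Cd44, a surface receptor that carries such chains in some isoforms, in both PDGF types (0.89 and 1.30; adjusted p = 0.0496 and 0.00491, with overlap of arrays) and Agrn, a basement membrane proteoglycan, in p53-/-RBPjk-/- tumours (0.78, 0.000971).

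**Figure D4:**
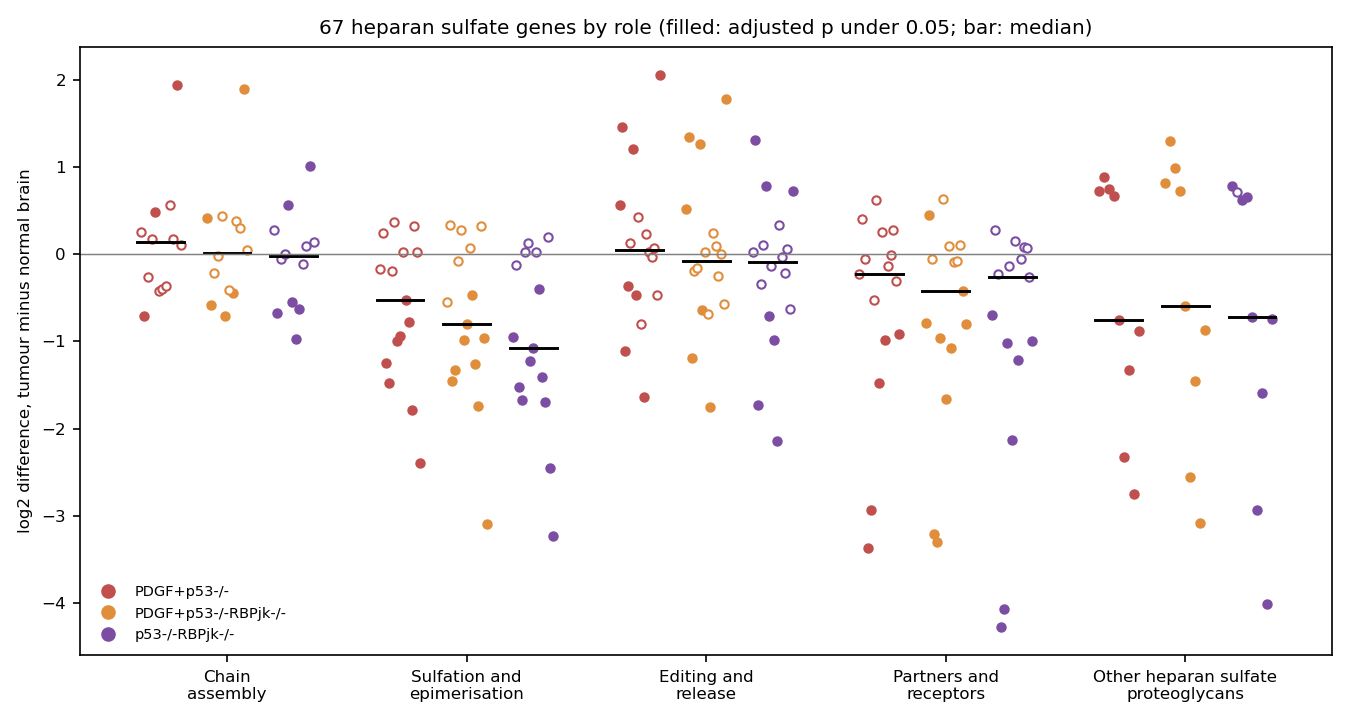
Log2 difference from normal brain (vertical axis) of 67 heparan sulfate genes in 5 roles, by tumour type, 1 point a gene, filled for an adjusted p under 0.05, with the median as a bar. The sulfation genes have medians of -0.52, -0.80 and -1.08, and Xylt1 and Sulf2 are the highest points of their roles in both PDGF types.

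Of the 67 genes 0 passed limma between both PDGF types, where 0.0201% of all genes did. In p53-/-RBPjk-/- tumours 3 were lower than in PDGF+p53-/-RBPjk-/- tumours (4.48%, against 3.27% of all genes), namely Ndst3 (-1.49 ± 0.28, adjusted p = 0.0096), Sulf2 (-1.05 ± 0.27, 0.0395) and Xylt1 (-0.89 ± 0.21, 0.0266). Against PDGF+p53-/- tumours 6 were lower (8.96%, against 5.54%): Ndst3 (-2.48 ± 0.28, adjusted p = 0.000288), Sulf2 (-1.32 ± 0.27, 0.00864), Xylt1 (-0.94 ± 0.21, 0.015), Glce, the epimerase of the chain (-0.78, 0.0437), Nptx1, a neuronal pentraxin (-0.66, 0.0222), and Gde1 (-0.62, 0.023). None was higher in either comparison. The 3 called against PDGF+p53-/-RBPjk-/- tumours became 1 without any 1 of PDGF+p53-/-RBPjk-/- replicates 1, 2 and 3 or p53-/-RBPjk-/- replicate 3, and the 6 against PDGF+p53-/- tumours became 2 without PDGF+p53-/- replicate 2 and 3 without PDGF+p53-/- replicate 3. With a sex term 0 were called against PDGF+p53-/-RBPjk-/- and 1 against PDGF+p53-/- tumours, and with only both groups in the fit 1 was called against PDGF+p53-/- tumours. The share of all genes called under these alternatives was not counted.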

How the data were processed

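Arrays of 16 samples were grouped by title and source label. The deposited values are log2 expression, and per the submitters' processing notes the authors used RMA and oligo. For versions, annotation build and filters, the sources used here give nothing. RMA equalises arrays, so a change in total RNA per cell cannot be seen, and whether a further scaling was applied is unknown. The values ran from 1.2 to 14.1, with column medians of 5.97 to 6.06, so genes were not centred.

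Of 35556 probe sets, 21789 have 1 symbol in the array annotation, 1621 have several and 12146 are unlisted; only the first were used. A gene with several probe sets (999 genes) took that with the highest mean, which left 19938 genes, and symbols were checked by gene ID against RefSeq GRCm38.p6 (21698 matched, 0 changed). limma 3.58.1 in R 4.3.3 (lmFit, eBayes) fitted all 16 arrays with 12 residual and 5.33 prior degrees of freedom, two-sided, with Benjamini-Hochberg adjustment over all genes in each of 6 comparisons. The number of arrays limits the precision (median SE 0.15). The fit was tested on simulated data. Tables and figures used Python 3.11.15 with pandas 2.3.3, numpy 2.4.6 and matplotlib 3.10.9. Alternatives were 10 other settings and leaving out each of 16 arrays. Same-numbered samples did not deviate together (correlations of -0.12 to 0.18 over 24 pairs), so numbers were not taken as pairs. The members and lists were chosen with earlier results of these data known. Named were all members, the largest called rise and fall of each role list against normal brain, every called list gene (at most 6 a role list) between tumour types, and the 2 genes most correlated with each called member.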

Additional observations from a re-analysis of the deposited data

Results flagged for a closer look

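Gpc5 was the member whose change from normal brain differed between tumour types. The direct test gave a log2 difference of -2.52 for p53-/-RBPjk-/- against PDGF+p53-/- tumours (limma adjusted p = 0.00232) and -1.84 against PDGF+p53-/-RBPjk-/- tumours (adjusted p = 0.0222), with lower values in 4 of 4 p53-/-RBPjk-/- arrays than in any array of either PDGF type. The call against PDGF+p53-/-RBPjk-/- tumours was lost with a sex term (-1.39, adjusted p = 0.25) and without any 1 of 5 arrays (PDGF+p53-/-RBPjk-/- replicates 1, 2 and 3 and p53-/-RBPjk-/- replicates 2 and 4; -1.86 to -1.56, adjusted p = 0.0549 to 0.0761). Of 40 sets of 4 arrays (10 genes in 4 groups), 0 held an array apart from the other 3 by Dixon's test at the 95% level.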

How the results depend on the processing

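Of 18 called differences of members, 11 kept their call under every alternative run (26, or 25 for Gpc4, which is dropped without dim genes) and 7 lost it under some; of 42 uncalled ones, 7 gained a call under some (Gpc6, Sdc1 and Sdc2). The number of members called went from 2 to 6 (PDGF+p53-/- against normal brain, 6 in full), 3 to 6 (PDGF+p53-/-RBPjk-/-, 5 in full), 5 to 6 (p53-/-RBPjk-/-, 5 in full), 0 to 1 (p53-/-RBPjk-/- against PDGF+p53-/-RBPjk-/-) and 1 to 2 (against PDGF+p53-/-) when single arrays were left out. For PDGF+p53-/- tumours it was 2 without control replicate 3 and 3 without control replicate 2 or PDGF+p53-/- replicate 4, and for PDGF+p53-/-RBPjk-/- tumours 3 without control replicate 2. Of the heparan sulfate genes, 2 to 8 were called for p53-/-RBPjk-/- against PDGF+p53-/- and 1 to 4 against PDGF+p53-/-RBPjk-/- tumours. The share of all genes called under each alternative was not counted. The counts of this section therefore have no background beside them and are not a result about these genes.

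Against PDGF+p53-/- tumours, 2 members were called without dim genes (7 members and 11301 genes left), and 3, 1 and 1 heparan sulfate genes were called with array weights, with only both groups in the fit and with a sex term. Against PDGF+p53-/-RBPjk-/- tumours, 0 members and 0 heparan sulfate genes were called with a sex term. The replicate number as a block gave 6, 6 and 6 members called against normal brain, the added calls being Gpc6 in PDGF+p53-/-RBPjk-/- (adjusted p = 0.0451) and p53-/-RBPjk-/- tumours (0.0326), and 0, 1 and 1 between tumour types; the numbers do not pair the samples.

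Differences that changed sign were all uncalled. With housekeeping centring, Sdc1 was at 0.03, 0.02 and 0.05 in the 3 comparisons between tumour types, and Gpc1 and Gpc6 at 0.12 and 0.02 for p53-/-RBPjk-/- against PDGF+p53-/-; with a sex term, Gpc6 was at -0.02 against PDGF+p53-/-RBPjk-/-. When single arrays were left out, differences from normal brain ran from -0.02 to 0.10 for Gpc1 (PDGF+p53-/-) and from -0.06 to 0.09 for Sdc2 (PDGF+p53-/-RBPjk-/-). For PDGF+p53-/-RBPjk-/- against PDGF+p53-/- they ran from -0.26 to 0.15 for Sdc1 and from -0.05 to 0.23 for Sdc3. For p53-/-RBPjk-/- against PDGF+p53-/-RBPjk-/- they ran from -0.01 to 0.41 for Gpc3, from -0.09 to 0.23 for Gpc6 and from -0.23 to 0.01 for Sdc1, and against PDGF+p53-/- from -0.27 to 0.05 for Gpc6 and from -0.35 to 0.06 for Sdc1. The cause of these changes was not tested. Housekeeping centring moved the median of all genes by 0.20 (p53-/-RBPjk-/- against normal brain), 0.18 (against PDGF+p53-/-) and 0.11 (against PDGF+p53-/-RBPjk-/-). Some of the centring genes were themselves called against normal brain, as given above.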
